A study of Homo sapiens with 4 samples.

Results

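The clustered protocadherins of chromosome 5 were examined in SK-N-BE(2)C, a neuroblastoma cell line with an amplified MYCN locus. The members were all protein-coding GENCODE genes of chromosome 5 whose symbols begin with PCDHA, PCDHB or PCDHG, which gave 53 of the 19970 protein-coding genes on the chromosomes that hold peaks. They comprise 15 genes of the alpha family, 16 of the beta family and 22 of the gamma family. A member was counted as having a promoter peak when any peak reached within 1 kb of its transcription start site (TSS). The choice used no measured value.

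ATAC-seq, in which the Tn5 transposase cuts open chromatin and tags it for sequencing, was performed on 4 samples. The 2 control samples carried a non-targeting guide RNA and are labelled wildtype, and the 2 sgSNHG1 samples carried guides against SNHG1, a lncRNA gene whose introns encode small nucleolar RNAs, and are labelled SNHG1 knockout. By the study's methods, the SNHG1-depletion clones were transfected with a Cas9 and guide construct together with a surrogate reporter. They were then selected with puromycin and grown from single sorted cells. The study describes the control as a single clone with a non-targeting guide and gives no separate account of its handling. Which SNHG1 clone gave each library is not given in the sources used here, and the study describes the edited cells as SNHG1-depleted rather than null. Clone and genotype therefore cannot be told apart.

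The authors combined the replicates of a group before calling peaks. Each value below thus comes from 1 pooled list per group, no spread between replicates exists, and no test between the groups was possible. There were 47610 peaks in control and 42682 in sgSNHG1. The depth behind a peak is the fragment pileup at its summit, with a median of 24 fragments in control and 20 in sgSNHG1. Fold enrichment is that pileup over the local background of the same list. At the genome-wide background the smallest pileup that could be called was 10 fragments in control, a fold enrichment of 3.41, and 9 fragments in sgSNHG1, a fold enrichment of 3.66. Of the 9 adrenergic neuroblastoma markers, 7 had a promoter peak in control and 8 in sgSNHG1. TH had none in either list, and GATA3 had one in sgSNHG1 alone, at a fold enrichment of 4.01. The 3 immune markers had none. EPCAM, an epithelial adhesion gene, had a peak in both lists, and KRT8 and CDH1 had none. Of 5 mesenchymal markers, 4 had a peak in each list. The share over the whole gene set was 58.4% for the control list and 54.2% for the sgSNHG1 list. With so few markers, these counts do not tell an adrenergic from a mesenchymal state. The SNHG1 promoter itself had a peak, at 5.71 in control and 6.04 in sgSNHG1, so that accessibility there does not tell the groups apart.

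Clustered protocadherins are cadherin-like adhesion proteins of the neuronal surface. A cell transcribes a small set of them, each from its own promoter, and like proteins on facing membranes bind each other, which lets a neurite recognise its own branches. In the alpha and gamma families each gene has its own large first exon, which is spliced to a set of constant exons shared by the whole family, whereas each beta gene is a single exon. The last alpha genes (PCDHAC1 and PCDHAC2) and the last gamma genes (PCDHGC3, PCDHGC4 and PCDHGC5) are called C-type and are known to be expressed more broadly and less randomly than the others. Silent members are known to be methylated at CpG sites of the promoter, and the chosen ones are brought to distal enhancers by CTCF and cohesin.

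All 53 members lie on the plus strand. The cluster, from the first member start to the last member end, spans chr5:140786136-141512977 (GRCh38), 726842 bp. Alpha occupies chr5:140786136-141012347, beta chr5:141051374-141249365 and gamma chr5:141330514-141512977. Neighbouring starts are a median of 6704 bp apart and at least 2459 bp apart, so that no promoter window belongs to more than 1 member.

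Most of these promoters share a short conserved element shortly before the start, with CGCT at its core. Windows around this core are shown for members with and without a peak, because both kinds of promoter held it. Each window is on the plus strand of GRCh38, lies wholly before the start and outside annotated exons, and has the core in capitals. In alpha, PCDHA2, PCDHA8 and PCDHA10 had a peak in both lists, and PCDHA4 and PCDHA12 had none. PCDHAC1, a C-type gene with a peak in both lists, has the core in other surroundings.
PCDHA2, chr5:140794777-140794816: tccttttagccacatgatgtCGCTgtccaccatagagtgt
PCDHA8, chr5:140841126-140841165: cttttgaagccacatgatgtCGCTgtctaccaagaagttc
PCDHA10, chr5:140855837-140855876: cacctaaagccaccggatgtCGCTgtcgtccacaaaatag
PCDHA4, chr5:140806975-140807014: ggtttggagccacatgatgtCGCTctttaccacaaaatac
PCDHA12, chr5:140875240-140875279: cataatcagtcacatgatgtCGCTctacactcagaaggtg
PCDHAC1, chr5:140926216-140926255: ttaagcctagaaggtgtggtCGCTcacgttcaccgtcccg

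In beta, PCDHB14 had a peak in both lists, PCDHB4 had one in control alone, and PCDHB10 and PCDHB12 had none. PCDHB1, which also had none, carries a changed core, which is in capitals too.
PCDHB14, chr5:141223259-141223298: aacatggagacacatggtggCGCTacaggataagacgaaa
PCDHB4, chr5:141121719-141121758: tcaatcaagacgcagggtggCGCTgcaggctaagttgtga
PCDHB10, chr5:141192295-141192334: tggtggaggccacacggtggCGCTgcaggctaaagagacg
PCDHB12, chr5:141208639-141208678: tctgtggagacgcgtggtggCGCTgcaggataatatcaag
PCDHB1, chr5:141051333-141051372: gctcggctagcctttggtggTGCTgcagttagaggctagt

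In gamma, the C-type genes PCDHGC3 and PCDHGC4 had a peak in both lists, and PCDHGB1 and PCDHGA9 had none.
PCDHGC3, chr5:141475876-141475915: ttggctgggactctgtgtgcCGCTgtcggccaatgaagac
PCDHGC4, chr5:141484948-141484987: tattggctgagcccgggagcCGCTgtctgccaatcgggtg
PCDHGB1, chr5:141350021-141350060: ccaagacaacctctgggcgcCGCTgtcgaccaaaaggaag
PCDHGA9, chr5:141402710-141402749: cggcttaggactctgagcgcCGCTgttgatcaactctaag

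CGCT stood on the gene strand within the 100 bases before the start in 46 of 53 members (86.8%), against 32.2% of all protein-coding genes. The share was 13 of 15 in alpha, 14 of 16 in beta and 19 of 22 in gamma. The word of 12 letters that holds CGCT and was found in the most members of a family was catgatgtCGCT in alpha (9 of 15 members), gtggCGCTgcag in beta (10 of 16) and gggcgcCGCTgt in gamma (4 of 22). Only the gene strand was searched and the words may overlap. Each word was chosen for being frequent in these same members, which raises its share among them. The all-gene shares below are therefore no independent contrast. The alpha word was found unchanged before 9 of the 19970 protein-coding genes and the gamma word before 4, all of them members. The beta word was found before 11, of which TUBGCP2 on chromosome 10 was the only gene outside the cluster. With up to 3 mismatches to the word of their own family, 43 of 53 members matched (81.1%), against 2.43% of all genes for the alpha word, 10.3% for the beta word and 12.9% for the gamma word. Where the match had a CGCT core, this core lay a median of 46 bases before the start, with a range of 11 to 81 bases over 40 members.

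The element was found in members with and without a peak. CGCT was present in 10 of 11 members with a peak and in 36 of 42 without. A match of up to 3 mismatches was present in 8 of 11 and in 35 of 42. The members with a peak but no such match were PCDHA11, PCDHAC1 and PCDHAC2. With the RefSeq start of PCDHA11 (GRCh38.p14), which lies 774 bp downstream of the GENCODE start, its mismatches fell from 5 to 2. RefSeq starts were given for 47 of 53 members and differed from GENCODE by a median of 0 bp.

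Few member promoters were accessible. In control 11 of 53 members (20.8%, 95% Wilson interval 12 to 33.5) had a promoter peak, against 58.4% of all protein-coding genes. In sgSNHG1 9 of 53 had one (17%, 9.20 to 29.2), against 54.2% of all. The 9 members of the sgSNHG1 list were all among the 11 of the control list, and the share with a peak in both lists was 17% against 52.6% of all genes. The members with a peak in control alone were PCDHA11 and PCDHB4, against 5.71% of all genes, and no member had a peak in sgSNHG1 alone, against 1.56%. This nesting depended on the threshold. With a -log10 q of at least 5, 8 members had a peak in control and 9 in sgSNHG1, and PCDHA10 and PCDHB14 had one in sgSNHG1 alone. With at least 10 the numbers were 6 and 3, and PCDHB14 had one in sgSNHG1 alone. The histone genes of chromosome 6, another dense cluster, had promoter peaks at 85.5% of 55 genes in control and 81.8% in sgSNHG1, and the HOX genes, which encode homeodomain factors in 4 clusters, at 28.2% and 20.5% of 39 genes. The Wilson intervals cover counting error only.

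**Figure D1:**
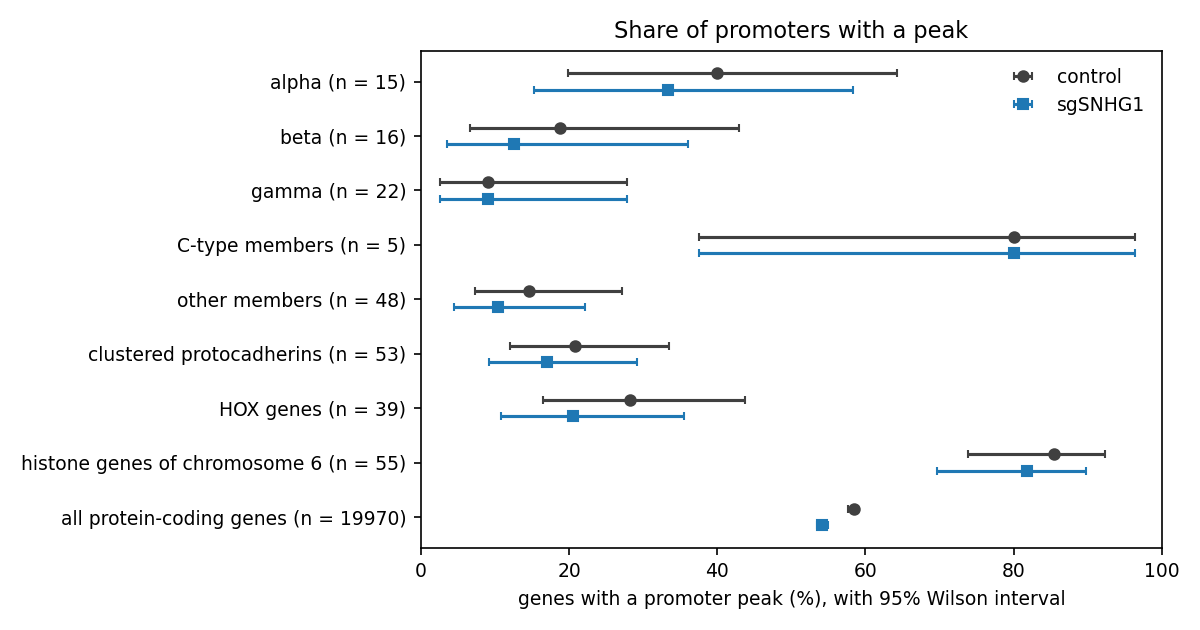
Share of genes with a promoter peak (x axis, percent) in each family of clustered protocadherins and in the comparison groups (y axis), with control as circles, sgSNHG1 as squares and bars for the 95% Wilson interval. The clustered protocadherins lie at 20.8% in control and 17% in sgSNHG1, left of the 58.4% and 54.2% of all protein-coding genes, while the C-type members lie at 80.0% in both.

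The open promoters were unevenly spread over the families. In alpha 6 of 15 members had a peak in control (19.8 to 64.3%), in beta 3 of 16 (6.59 to 43.0%) and in gamma 2 of 22 (2.53 to 27.8%). These Wilson intervals overlap. Of the 5 C-type members, 4 had a peak in both lists (80.0%, 37.6 to 96.4), an interval that holds the 52.6% of all genes. Of the other 48 members 7 had one in control (14.6%, 7.25 to 27.2) and 5 in sgSNHG1 (10.4%, 4.53 to 22.2). PCDHGC5 was the C-type member without a peak. The 42 members with a peak in neither list were 9 of alpha (PCDHA1, PCDHA3, PCDHA4, PCDHA5, PCDHA6, PCDHA7, PCDHA9, PCDHA12 and PCDHA13), 13 of beta (PCDHB1, PCDHB2, PCDHB3, PCDHB5, PCDHB6, PCDHB7, PCDHB8, PCDHB9, PCDHB10, PCDHB11, PCDHB12, PCDHB13 and PCDHB15) and 20 of gamma, namely PCDHGC5 and all 19 members named PCDHGA or PCDHGB. Accessibility below the pileups given above was not detectable at this depth.

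The 19 gamma A and B starts lie in 1 stretch without any peak. Between the peak at the TAF7 start, a subunit gene of the general transcription factor TFIID, and the peak at PCDHGC3, neither list held a peak over chr5:141321100-141475629, 154530 bp. Among the 7391 stretches of the genome that are free of peaks in both lists and hold a protein-coding start, this stretch was the fourth by number of starts. Those with as many or more starts held PRAMEF genes on chromosome 1 (27 starts) and olfactory receptor genes on chromosome 11 (27 and 19 starts). Their lengths were 733 kb, 675 kb and 487 kb, against 155 kb for the gamma stretch. Shorter stretches without peaks held 5 starts (PCDHA3 to PCDHA7, 45523 bp), 5 starts (PCDHB9 to PCDHB13, 40552 bp) and 4 starts (PCDHB5 to PCDHB8, 60127 bp), and each other stretch that touched the cluster held at most 2 member starts.

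**Figure D2:**
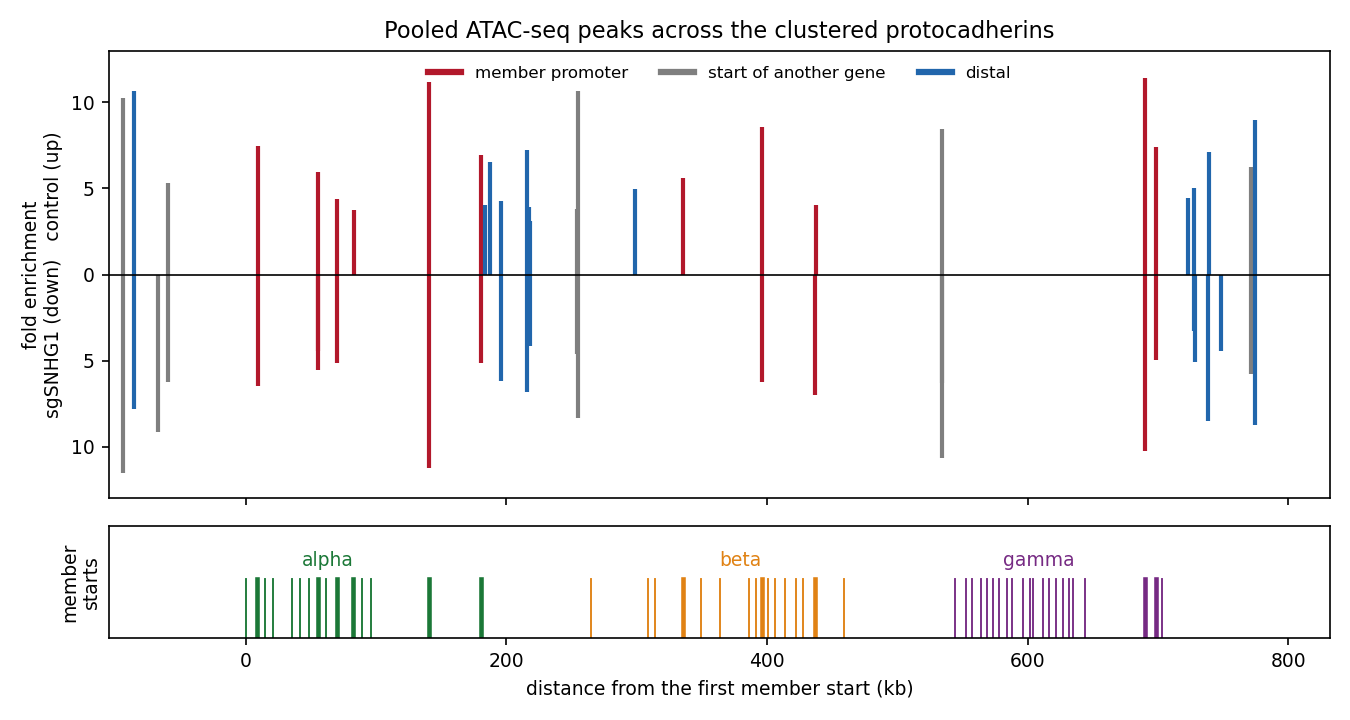
Peaks of both lists along the cluster and 100 kb on either side (x axis, distance from the first member start in kb), with fold enrichment on the y axis, control upward and sgSNHG1 downward, coloured by whether the peak lies at a member promoter, at the start of another gene or elsewhere. The lower strip marks the 53 member starts by family, thick where the promoter had a peak, and shows the peak-free run of thin gamma lines that ends at PCDHGC3.

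Among the alpha genes, the highest promoter peak was that of PCDHAC1 (ENSG00000248383.5). Its fold enrichment was 11.2 in control, with a pileup of 57 fragments, and 11.3 in sgSNHG1, with 45 fragments. These values exceeded those of 86.8% of protein-coding genes with a promoter peak in control and of 88.7% in sgSNHG1. The peak covered chr5:140926146-140926972 in control and chr5:140926244-140927015 in sgSNHG1, with the summit 207 and 315 bp after the start, in the first exon. The log2 ratio of sgSNHG1 over control was 0.01 with a counting standard error (SE) of 0.29, and no difference was detectable.

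PCDHA2, an alpha gene near the upstream end of the cluster, stood at 7.49 in control (23 fragments) and at 6.45 in sgSNHG1 (17 fragments). The log2 ratio of -0.22 was within its counting SE of 0.46. PCDHAC2, the C-type gene nearest to the alpha constant exons, had 6.97 in control (44 fragments) and 5.16 in sgSNHG1 (21 fragments), a log2 ratio of -0.43 with an SE of 0.38. The unnamed gene ENSG00000279028 starts within the same peak, 83 bp from its control summit, so that the peak cannot be given to either alone. The other alpha genes with peaks in both lists, PCDHA8 and PCDHA10, had fold enrichments of 4.37 to 5.93, and their ratios lay within 1 counting SE of 0. At PCDHA8 the sgSNHG1 list held a second peak, of fold enrichment 4.41, 622 bp after the start.

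In beta, PCDHB16 reached a fold enrichment of 8.55 in control (31 fragments) and of 6.23 in sgSNHG1 (19 fragments), a log2 ratio of -0.46 with an SE of 0.42. PCDHB4 had 5.62 in control, with 17 fragments, and no peak in sgSNHG1. An equal height over background in sgSNHG1 would have been 13.3 fragments, and the 95% Poisson interval of the control count, scaled in the same way, was 7.74 to 21.3 fragments. This interval reaches below the 9 fragments needed for a call, so that a change at PCDHB4 was not detectable at this depth. PCDHB14 went the other way. It had 4.06 in control, from 12 fragments, and 6.99 in sgSNHG1, from 18 fragments. Unnamed genes, ENSG00000279068 and ENSG00000279983, also start within 1 kb of the PCDHB16 and PCDHB14 peaks, and signal cannot be divided between them and the members.

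In gamma, PCDHGC3 had the highest fold enrichment of all members in control, 11.4 from 72 fragments, and 10.2 from 48 fragments in sgSNHG1. The summit lay 31 bp before the start in control and 54 bp before it in sgSNHG1, next to the element shown above. PCDHGC4 had 7.41 in control (35 fragments) and 4.98 in sgSNHG1 (16 fragments). Both lie beyond the peak-free stretch, close to the gamma constant exons.

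**Figure D3:**
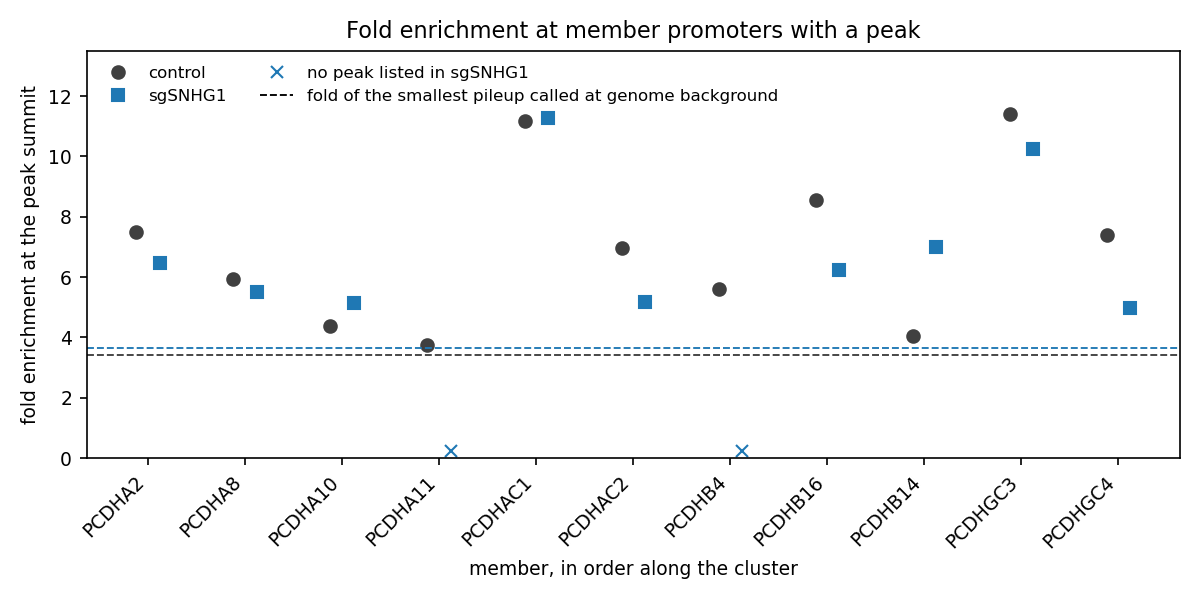
Fold enrichment at the peak summit (y axis) of the 11 members with a promoter peak, in their order along the cluster (x axis), with control as circles and sgSNHG1 as squares. PCDHAC1 and PCDHGC3 lie above 10 in both lists, the other members below 9, and crosses mark PCDHA11 and PCDHB4, which had no sgSNHG1 peak; dashed lines mark the fold enrichment of the smallest pileup called at the genome-wide background, 3.41 in control and 3.66 in sgSNHG1.

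The PCDHA11 peak was the weakest of the 11, with a fold enrichment of 3.74 from 11 fragments. Its summit lay 1222 bp after the GENCODE start and only its edge reached the window around that start. It was therefore not counted with the summit required within 1 kb of that start. The RefSeq start lies 774 bp downstream of the GENCODE start, at chr5:140868957, closer to the peak, which covers chr5:140869126-140869479. Scaled to the sgSNHG1 background, 11 fragments correspond to 8.60, below the 9 needed for a call there.

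Over the 9 members with a peak in both lists, the median log2 ratio of fold enrichment was -0.16, with quartiles of -0.43 and 0.01, and 6 of 9 were lower in sgSNHG1. Over the 10513 protein-coding genes with a promoter peak in both lists the median was -0.08, with quartiles of -0.27 and 0.10, and 60.9% were lower. A ratio of 0.5 in size or more was found at PCDHGC4, which was lower in sgSNHG1 by -0.57 (SE 0.44), and at PCDHB14, which was higher by 0.78 (SE 0.54). The background was 7.69% of genes at or below -0.5 and 1.82% at or above 0.5. No member ratio exceeded 2 counting SE, and of the 10513 genes 208 did. With the scaled pileup, the pileup divided by the genome-wide background of its list, the ratio was -0.77 at PCDHGC4, 0.94 at PCDHB14 and -0.71 at PCDHAC2, which had -0.43 in fold enrichment and so passed 0.5 on this scale alone. The median over the 9 members was then -0.08, against -0.05 over all genes with a peak in both lists. Again no member exceeded 2 counting SE.

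**Figure D4:**
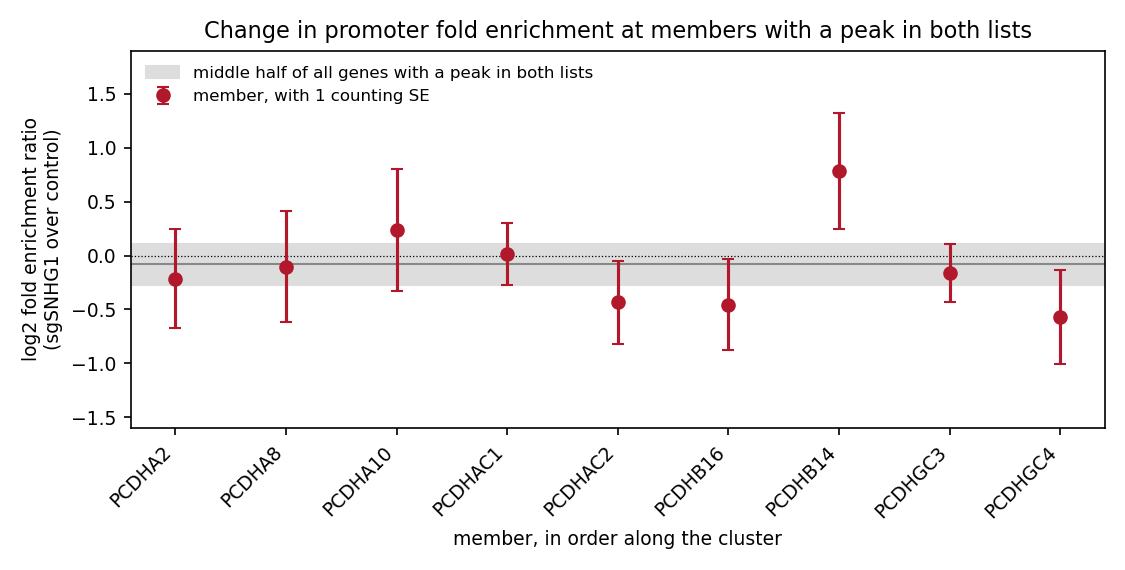
Change in fold enrichment as a log2 ratio of sgSNHG1 to control (y axis), for the 9 members with a promoter peak in both lists (x axis), with bars of 1 counting SE. The grey band spans the quartiles of all protein-coding genes with a peak in both lists, -0.27 to 0.10, around their median; PCDHGC4 at -0.57 and PCDHB14 at 0.78 lie farthest from it.

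The widths of the peaks were compared as well. From control to sgSNHG1, the PCDHGC3 peak went from 1148 to 369 bp and the PCDHGC4 peak from 869 to 130 bp. PCDHAC1 (827 and 772 bp) and PCDHA2 (751 and 717 bp) kept nearly the same width, and PCDHA10 was wider in sgSNHG1 (183 and 234 bp). Inside the cluster 13 of 15 pairs of peaks were narrower in sgSNHG1, and over all pairs of the genome 79.8% were. MACS2 sets the smallest width from the fragment length, and it was 119 bp in control against 92 bp in sgSNHG1. The part of this difference in the widths was not tested.

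Member promoters were poor in GC. The stretch from 250 bases before to 50 bases after the start had a median GC content of 38.67% over members, against 60.33% over all protein-coding genes. The ratio of observed to expected CpG dinucleotides was 0.555 against 0.697. Promoters of genes with a peak had a median GC content of 64.00%, and those without a peak 52.33%, over all genes. Among members the median was 38.67% with a peak and 39.00% without. The 4 C-type members with a peak held more GC than the other members with a peak. The values were 66.00% at PCDHAC1, 62.33% at PCDHAC2, 59.67% at PCDHGC3 and 55.33% at PCDHGC4. PCDHAC1 and PCDHAC2 lay above the median of all protein-coding genes, and PCDHGC3 and PCDHGC4 below it. The C-type gene without a peak, PCDHGC5, had 55.67% GC but a CpG ratio of 0.219, the lowest of the 42 members without a peak. The other members with a peak were AT-rich, with 27.00% to 43.00% GC. The lowest value is that of PCDHA11 around its GENCODE start, and no value around its RefSeq start is given here.

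**Figure D5:**
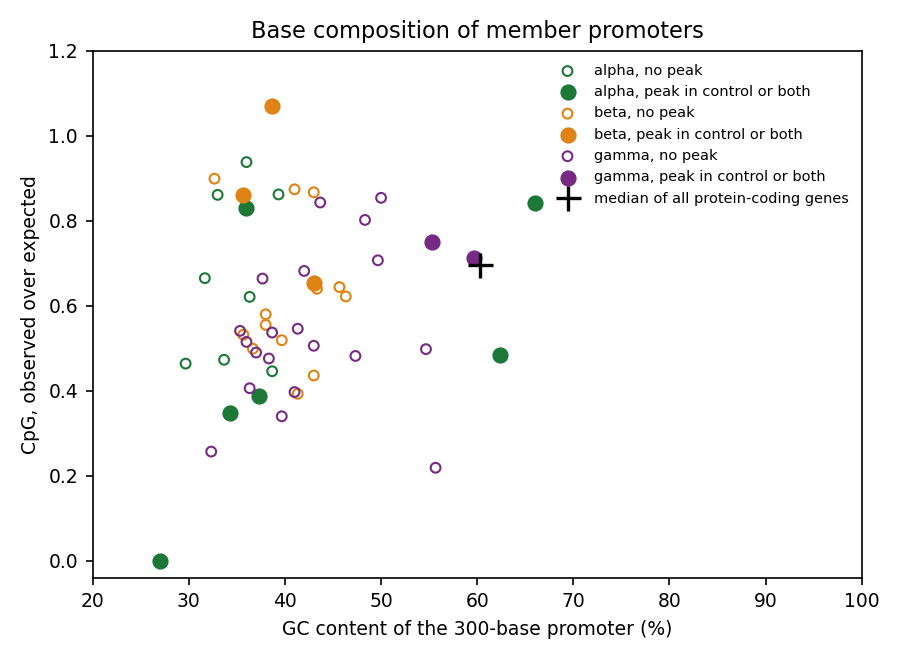
GC content (x axis, percent) and observed over expected CpG (y axis) of the promoter sequences of the 53 members, coloured by family and filled where the promoter had a peak, with a cross at the median of all protein-coding genes. The C-type members with a peak lie near the cross or beyond it, between 55.33% and 66.00% GC. The other filled symbols lie at or below 43.00% GC, where most open ones are. PCDHA11 (27.00% GC and no CpG at its GENCODE start) and PCDHB4 (CpG ratio of 1.07) lie outside the range of the open symbols.

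TATAAA, the word of the TATA box, was searched on either strand and at any position of this stretch. It was found in 13 of 53 members (24.5%) and in 10.8% of all promoters of this length. A hit need not lie where a TATA box works, and the part of the low GC content in this difference was not tested. The 14-letter CTCF consensus was found exactly in 0 of 53 members and in 0.361% of all, which says only that these letters are not in this window. The exons of alpha genes are known to carry further CTCF sites beyond it. The authors removed reads that map to several places, and repeated sequence can lower the signal. Words of 75 bases that recur in the cluster made up a median of 0% of the member windows and at most 33.2%, and 7 members exceeded 10%. These were PCDHB8 and PCDHB13 (33.2% each), PCDHGB4 and PCDHGB5 (21.9% each), PCDHA7 (21.6%), and PCDHB9 and PCDHB10 (13.1% each). None of the 7 had a peak, but neither had 42 of all 53 members (79.2%). The highest share among members with a peak was 7.16%, at PCDHA8. The part of repeated sequence in the missing peaks was not tested.

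Inside the cluster the control list held 22 peaks over 10015 bp and the sgSNHG1 list 18 over 5909 bp. Per megabase this was 30.3 and 24.8 peaks, against 15 and 13.7 on the whole of chromosome 5. The mean fold enrichment was 6.28 and 6.52, so that fewer bases but no lower mean height were called in sgSNHG1. This pattern was not particular to the cluster. The whole sgSNHG1 list also held fewer peaks, and mean peak width fell from 410 to 306 bp genome-wide, beside 455 to 328 bp inside the cluster. Genome-wide mean fold enrichment went from 6.19 to 6.25. Of the control peaks inside the cluster 15 of 22 (68.2%, 47.3 to 83.6) overlapped a sgSNHG1 peak, against 66.7% of all control peaks. Of the sgSNHG1 peaks 16 of 18 (88.9%, 67.2 to 96.9) overlapped a control peak, against 78.2% of all. The median log2 ratio of fold enrichment was -0.08 over 15 pairs inside the cluster, -0.04 over 176 pairs within 5 Mb outside it and -0.03 over the 1842 pairs of chromosome 5.

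Peaks away from member promoters lay mostly around the constant exons and beyond the ends. Within the cluster and 100 kb on either side, 18 control and 18 sgSNHG1 peaks overlapped no member window, and 13 and 15 of them overlapped the other list. Of these, 6 in control and 8 in sgSNHG1 lay within 1 kb of the start of another gene, which left 12 and 10 distal peaks. The strongest in sgSNHG1 lay upstream of alpha, at the shared start of HARS1 and HARS2, the histidyl-tRNA synthetase genes. Fold enrichment there was 10.2 in control (chr5:140691282-140691763) and 11.5 in sgSNHG1. A peak at chr5:140700210-140700479, in an intron 1640 bp from the start of ZMAT2, had 10.7 and 7.78 and was the strongest in control. At TAF7 the single control peak (8.45) was split into 2 in sgSNHG1 (6.32 and 10.7). VTRNA1-2, a vault RNA gene, had a peak in sgSNHG1 alone, with a fold enrichment of 9.16 from 27 fragments. Downstream of gamma, the peak at chr5:141560620-141561064 had 8.98 in control and 8.73 in sgSNHG1.

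Between alpha and beta the strongest peak lay 10218 bp before PCDHB1, at chr5:141040875-141041412. Its fold enrichment was 10.6 from 72 fragments in control and 8.35 from 39 in sgSNHG1, a log2 ratio of -0.35 with an SE of 0.29. The unnamed long non-coding gene ENSG00000288892 starts 251 bp from its control summit. A weaker peak less than 1 kb upstream had 3.84 and 4.63. An enhancer of the alpha genes known as HS5-1 lies downstream of the alpha constant exons, but no coordinates for it were used here and no peak was assigned to it. The sequence at the control summit is shown because this was the highest control peak inside the cluster away from member promoters, with the 5 bases at the summit in capitals, on the plus strand.
Summit between alpha and beta, chr5:141041096-141041216: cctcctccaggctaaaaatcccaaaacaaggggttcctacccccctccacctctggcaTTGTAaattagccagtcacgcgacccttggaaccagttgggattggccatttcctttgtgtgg

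The alpha constant exons, shared by all 15 alpha genes, lie at chr5:140978949-140979007, chr5:140982475-140982563 and chr5:141009627-141012347. In the intron between the later pair of them, both lists held a peak at chr5:141001821-141002357 (7.24 in control, 6.84 in sgSNHG1), 7269 bp before the last exon. Its log2 ratio was -0.08 with an SE of 0.36. A peak that ended 153 bp before the second exon had 4.27 in control and 6.17 in sgSNHG1. Upstream of the first exon, a peak of 6.51 from 28 fragments, at chr5:140973626-140973806, was in the control list alone. In gamma a peak in the last constant intron, 1722 bp before the last exon, had 4.43 and was in the control list alone. Of the 7 control peaks of the cluster and its flanks without an sgSNHG1 partner, these 2 had a scaled 95% Poisson interval wholly above the pileup needed for a call in sgSNHG1 at their own local background. It was 14.5 to 31.6 fragments against 11 for the first and 17.8 to 36.2 against 16 for the gamma peak. The other 5 were those of PCDHA11 and PCDHB4 and the peaks starting at 140969780, 141003177 and 141084559, whose intervals reached below it. Of the 4 sgSNHG1 peaks without a control partner, that at VTRNA1-2 was the one above it, with 22.8 to 50.2 fragments against 11. These intervals cover the counting error of 1 list and assume that its local background scales to the other. How many peaks of 1 list alone pass this limit over the whole genome is not given here. Whether such peaks are more frequent at the cluster than elsewhere is therefore not known. Summits of the intronic peak present in both lists and of the control-alone peak are shown in the same way, as the distal sites of alpha with the highest fold enrichment in control.
Intronic peak of both lists, chr5:141002098-141002218: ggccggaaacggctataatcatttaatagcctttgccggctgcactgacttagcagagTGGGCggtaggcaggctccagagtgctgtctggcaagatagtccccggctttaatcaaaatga
Control-alone peak, chr5:140973682-140973802: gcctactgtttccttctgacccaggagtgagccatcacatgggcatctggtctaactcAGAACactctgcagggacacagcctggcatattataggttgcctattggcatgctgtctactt

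None of these windows of 121 bases held the CTCF consensus with up to 1 mismatch on either strand. Within 100 bp of the summits of all peaks the exact consensus was found at 2.47% in control and 2.43% in sgSNHG1, and among the peaks of the cluster and its flanks at the control peak chr5:141524716-141525500, in an intron downstream of gamma. That peak had 7.15 in control and 8.51 in sgSNHG1.

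Genes that act on these promoters or proteins were counted in the same way, beside the 58.4% of all genes with a promoter peak in control, the 54.2% in sgSNHG1 and the all-gene median ratio of -0.08. Of 22 regulators of protocadherin promoter choice, 19 had a promoter peak in control and 18 in sgSNHG1, with a median log2 ratio of -0.15 over the 17 with a peak in both. The largest ratios were -0.64 (SE 0.53) at REST, a repressor of neuronal genes, -0.61 (SE 0.33) at DNMT3A, a de novo DNA methyltransferase, and -0.59 (SE 0.43) at SMCHD1, a chromosome protein needed for silencing of the cluster. CTCF had 7.44 in control and 7.26 in sgSNHG1, and RAD21, a cohesin subunit, 12.8 and 10.6. Of 16 genes for partners and effectors of the protocadherins, 14 had a peak in each list, with a median of -0.10. Their largest ratios were -0.52 (SE 0.39) at RAC1, a small GTPase of the cytoskeleton, -0.40 (SE 0.33) at CYFIP2 and -0.40 (SE 0.30) at WASF1, both of the actin-nucleating WAVE complex. None of these exceeded 2 counting SE in fold enrichment, and all 3 regulators and RAC1 fell among the 7.69% of genes at or below -0.5. With the scaled pileup, which leaves out the local background, the ratio at REST was -1.27 and exceeded 2 counting SE. It came from 31 fragments in control and 10 in sgSNHG1. REST lies on chromosome 4, as does PDS5A of the same list, at -0.14 on that scale. The adrenergic marker HAND2, at -0.55, and the non-clustered protocadherins PCDH10 and PCDH18, at -0.97 and -1.01, lie there too. Whether that chromosome differs as a whole was not tested. How many of all genes exceed 2 counting SE on that scale is not given here. The other values on that scale were -0.52 at DNMT3A, -0.60 at SMCHD1, -0.50 at RAC1, -0.54 at CYFIP2 and -0.52 at WASF1.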

How the data were processed

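ATAC-seq of 2 control and 2 sgSNHG1 samples of SK-N-BE(2)C cells was analysed from the deposited peak lists, 1 per group. The authors trimmed reads with cutadapt, aligned them to GRCh38 with BWA, removed duplicates marked with GATK-Picard and multiply mapped reads, shifted read ends for the Tn5 cut with deepTools, combined the replicates and called peaks with MACS2 in paired-end mode. Versions and the significance threshold are not given in the sources used here. Leaving out multiply mapped reads lowers signal in repeated sequence, and after pooling a peak carried by 1 library cannot be told.

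Per peak the deposited lists hold a score (the -log10 q times 10, as a whole number), a fold enrichment, a -log10 p and a -log10 q. The fold enrichment, as deposited, is the ratio of summit pileup to local background, each plus 1. The score was not used. The summit pileup was solved from both values to within 0.001 of the -log10 p for 47609 of 47610 control and 42682 of 42682 sgSNHG1 peaks. On simulated data it was returned for 100% of 20000 peaks. The genome-wide background is the smallest local background, 2.20 fragments in control and 1.72 in sgSNHG1. Counting standard errors of log2 ratios come from Poisson errors of the 2 pileups and cover counting error only, as do the 95% Wilson intervals.

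Genes came from GENCODE version 44, whose build matches the files, and promoter sequences of RefSeq starts from GRCh38.p14. A gene had the highest fold enrichment among peaks that overlap its window of 1 kb on either side of the start of the gene record. Peaks of the lists were shared when they overlapped by 1 bp, and a log2 ratio of 0.5 in size was named. Members with a peak in either list were named, with values for the 3 highest in control per family, for those in 1 list alone and for those past 0.5. Of the gene lists the 3 largest ratios, and of the peaks outside member promoters the 5 highest in either list, were named. The CTCF, RAD21, intronic, PCDHA10, PCDHA8 and second-peak values, the scaled values, the peaks of 1 list alone, the peak downstream of gamma at 8.98 and the printed sequences were chosen after values were seen. The members, gene lists and comparisons were chosen with earlier results of these data known. Python 3.11.15, numpy 2.4.6, pandas 2.3.3, scipy 1.17.1 and matplotlib 3.10.9 were used. Alternatives were other windows, start sites and thresholds, and the scaled pileup.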

Additional observations from a re-analysis of the deposited data

How the results depend on the processing

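No paired analysis was possible because each group is 1 list pooled over its replicates, and for the same reason no replicate could be left out. Of 56 recomputed counts and medians, 44 stayed within 1.5 times the reported count or within the counting error, and 12 moved. Requiring a -log10 q of at least 10 left 6 members with a promoter peak in control, 3 in sgSNHG1 and 2 in both lists (PCDHAC1 and PCDHGC3). The same limit left 11 control and 7 sgSNHG1 peaks inside the cluster, of which 5 and 6 overlapped the other list, and 11 peaks in each list outside member promoters. With no flank, 11 control and 8 sgSNHG1 peaks lay outside member promoters. With 1 mismatch allowed, the CTCF consensus was found in 1 of 53 member promoters. Each of these settings counts fewer peaks, a shorter region or looser matches by construction. At a -log10 q of at least 5, PCDHA10 and PCDHB14 had a peak in sgSNHG1 alone and 8 members had one in control. With the start of any transcript, the RefSeq start (chosen after seeing the data), or windows of 500 bp or 3 kb, 10 or 11 members had a control peak and 9 an sgSNHG1 peak. With fold enrichment summed over the peaks of a promoter, PCDHA8 had a log2 ratio of 0.74 in place of -0.10. Depth limits what can be seen, since most member peaks rest on fewer than 50 fragments.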

Other observations

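The non-clustered protocadherins, single genes of related adhesion proteins that are not members of the cluster, were counted in the same way. PCDH1 and PCDH12 are also on chromosome 5. Of 12 genes, 10 had a promoter peak in control and 7 in sgSNHG1, and 6 had one in both lists, beside 58.4%, 54.2% and 52.6% of all protein-coding genes. PCDH1, PCDH7, PCDH15 and PCDH20 had a peak in control alone, with fold enrichments of 4.63, 3.52, 3.60 and 7.49, and PCDH17 had one in sgSNHG1 alone, with 3.26, beside 5.71% and 1.56% of all genes. Over the 6 genes with a peak in both lists the median log2 ratio of fold enrichment was -0.23, against -0.08 over all genes with a peak in both lists, and 4 were lower in sgSNHG1. The largest ratios were -0.52 (SE 0.39) at PCDH18, from 10.6 in control to 7.36 in sgSNHG1, -0.42 (SE 0.33) at PCDH12 and -0.32 (SE 0.42) at PCDH8. With the scaled pileup, which leaves out the local background, the log2 ratio was -1.01 at PCDH18 and -0.97 at PCDH10, both beyond 2 counting SE. Both lie on chromosome 4, as does PCDH7. So do REST, HAND2 and PDS5A, at -1.27, -0.55 and -0.14 on that scale. Whether that chromosome differs as a whole was not tested. By fold enrichment neither PCDH18 nor PCDH10 exceeded 2 counting SE, whereas 208 of the 10513 genes with a peak in both lists did. The number of genes past this limit with the scaled pileup is not given here. PCDH11X had no peak in either list.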
